A study of Rattus norvegicus with 80 samples.

Results

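The genes described here are 39 interferon-stimulated genes, chosen by gene symbol as known targets of interferons, of which 37 were found among the 15925 genes named on the arrays. The list was made with earlier results of these data known. Irf8 and Xaf1 were not analysed here. Of the 37 measured genes, 29 were read by 1 probe and 8 by the mean of several probes, 46 probes in all. The tissue was the right lung of male Sprague-Dawley rats, bought at 7 weeks of age, which had received 1 instillation through the trachea and whose lungs were flushed with saline before RNA was taken. The instilled materials were 3 preparations of cellulose nanofibrils (CNF1, CNF2 and CNF3, fine fibres of plant cellulose) and multi-walled carbon nanotubes (MWCNT, nested tubes of carbon). Each material had 4 dose levels, which the array labels give as its vehicle, 0.5, 1.0 and then 2.0 mg/kg, and was examined on days 1, 3, 7, 30 and 90. Vehicle was distilled water with preservatives, prepared for each material. There was 1 array for each of the 80 combinations, and whether its RNA came from a single animal or was pooled from the 4 rats per group and day named in the protocol is not stated. The protocol text names a single instilled dose of 1 mg/kg and suspensions in mg/mL, so the mg/kg values are used as the names of the groups.

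Interferons are secreted proteins that cells release when they sense nucleic acids of viruses, or of damaged cells, in the wrong place. Type I interferons (the alpha and beta families) act on target genes through the interferon-stimulated response element in their promoters, whereas interferon gamma, a product of T and natural killer cells, acts through the gamma-activated site. The target genes code for antiviral effectors, for sensors and transcription factors that feed back on the pathway, for the antigen processing machinery, and for the chemokines Cxcl9, Cxcl10 and Cxcl11, which attract cells that carry the receptor Cxcr3. In the lung, epithelium, alveolar macrophages and recruited leukocytes can all switch these genes on.

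Promoters of 31 of the 39 genes were present in the RefSeq table of the rat assembly GRCr8, each running from 250 bases before to 50 bases after the start that the table gives for the gene. For 17 of the 31 that start is the outer end of the annotated gene, and for the others it lies inside the gene, by up to 1398 bases. The core of the interferon-stimulated response element, GAAANNGAAA on either strand, was present in 18 of these 31 promoters (58.1%), compared with 3.92% of 33469 rat promoters of the same length. The gamma-activated site, TTCNNNGAA on either strand, was present in 9 of the 31 (29%), compared with 8.87% of all promoters, and 23 of the 31 held at least one of these motifs. The 4 promoters below belong to the genes with the largest MWCNT response among those that hold the core, and are shown so that the element can be seen in place. Each is written 5′ to 3′ on the strand of its gene, with the core in capitals, and a core that begins with TTTC lies on the opposite strand.
Cxcl10 promoter, GRCr8 chr14:15988816-15989115, plus strand: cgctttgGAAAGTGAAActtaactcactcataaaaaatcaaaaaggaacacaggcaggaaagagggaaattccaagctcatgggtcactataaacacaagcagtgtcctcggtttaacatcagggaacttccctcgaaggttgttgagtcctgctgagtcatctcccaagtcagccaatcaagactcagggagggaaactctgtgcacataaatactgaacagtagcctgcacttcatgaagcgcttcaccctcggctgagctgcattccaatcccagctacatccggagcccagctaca
Ifit3 promoter, GRCr8 chr1:241527076-241527375, plus strand: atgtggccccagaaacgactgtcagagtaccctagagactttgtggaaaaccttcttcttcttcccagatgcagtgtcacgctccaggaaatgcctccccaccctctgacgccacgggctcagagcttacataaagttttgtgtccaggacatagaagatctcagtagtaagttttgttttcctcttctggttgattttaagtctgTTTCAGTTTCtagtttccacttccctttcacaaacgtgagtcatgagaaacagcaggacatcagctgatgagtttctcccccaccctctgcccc
Irf7 promoter, GRCr8 chr1:205799974-205800273, minus strand: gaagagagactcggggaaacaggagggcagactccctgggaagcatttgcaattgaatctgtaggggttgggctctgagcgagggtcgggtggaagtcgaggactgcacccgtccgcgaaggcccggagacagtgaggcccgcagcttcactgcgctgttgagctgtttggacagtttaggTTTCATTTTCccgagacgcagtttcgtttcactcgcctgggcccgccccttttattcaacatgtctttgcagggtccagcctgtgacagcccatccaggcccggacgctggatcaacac
Rsad2 promoter, GRCr8 chr6:48788071-48788370, minus strand: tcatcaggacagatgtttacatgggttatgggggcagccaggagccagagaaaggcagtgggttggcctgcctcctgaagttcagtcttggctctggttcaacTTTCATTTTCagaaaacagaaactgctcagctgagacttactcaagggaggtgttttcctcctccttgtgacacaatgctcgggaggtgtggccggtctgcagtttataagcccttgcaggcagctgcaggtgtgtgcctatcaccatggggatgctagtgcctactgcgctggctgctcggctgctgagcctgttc
The core began 243 bases before the table's start in Cxcl10, 147 in Rsad2, 69 in Irf7 and 44 in Ifit3. That start is the outer gene end in Cxcl10 and Ifit3, and lies 125 bases inside the annotated gene in Rsad2 and 520 in Irf7. Cxcl11, the gene with the largest response of all 37, held no such core in its 300 bases, but did hold a gamma-activated site. The core was present in 5 of the 11 promoters of genes that were higher after MWCNT and in 12 of the 18 promoters of measured genes that were not. These are matches of letters, and binding of a factor was not measured.

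Values are on the log2 scale and were centred for each probe before deposit, so that a value of 0 is near the middle of the 80 arrays. They hold no signal level, which means that genes cannot be ranked by abundance, no gene can be placed above or below background, and the lung identity of the samples could not be checked against markers. A difference is the exposed array minus the vehicle array of the same material and day, and an effect is the mean of the 5 daily differences with its SE from a limma fit of all 80 arrays (48 residual degrees of freedom). Genes were called at a Benjamini-Hochberg adjusted p under 0.05 over all 15925 genes. With 1 array per group, the SE measures the scatter of differences over days and doses, and it is unknown how much of it lies between animals. In whole lung, more cells of a type and more RNA per cell cannot be told apart.

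MWCNT at 2.0 mg/kg raised 16 of the 37 interferon-stimulated genes over the 5 days and lowered 0 (22 higher and 0 lower at an unadjusted p under 0.05). Over all genes, 12.7% were called higher and 9.16% lower in the same comparison, against 43.2% of these genes called higher. Because earlier results of these data were known when the list was made, this contrast is a description and not a test. The median effect was 0.28, and 31 of the 37 effects were above 0, while the median of all genes was 0.0087. In 22 of the 37 genes the exposed array was above its vehicle on all 5 days, which held for 18.6% of all genes, and in 0 it was below on all 5 days. The effects plot of the 4 materials shows the genes in the order of their roles.

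**Figure D1:**
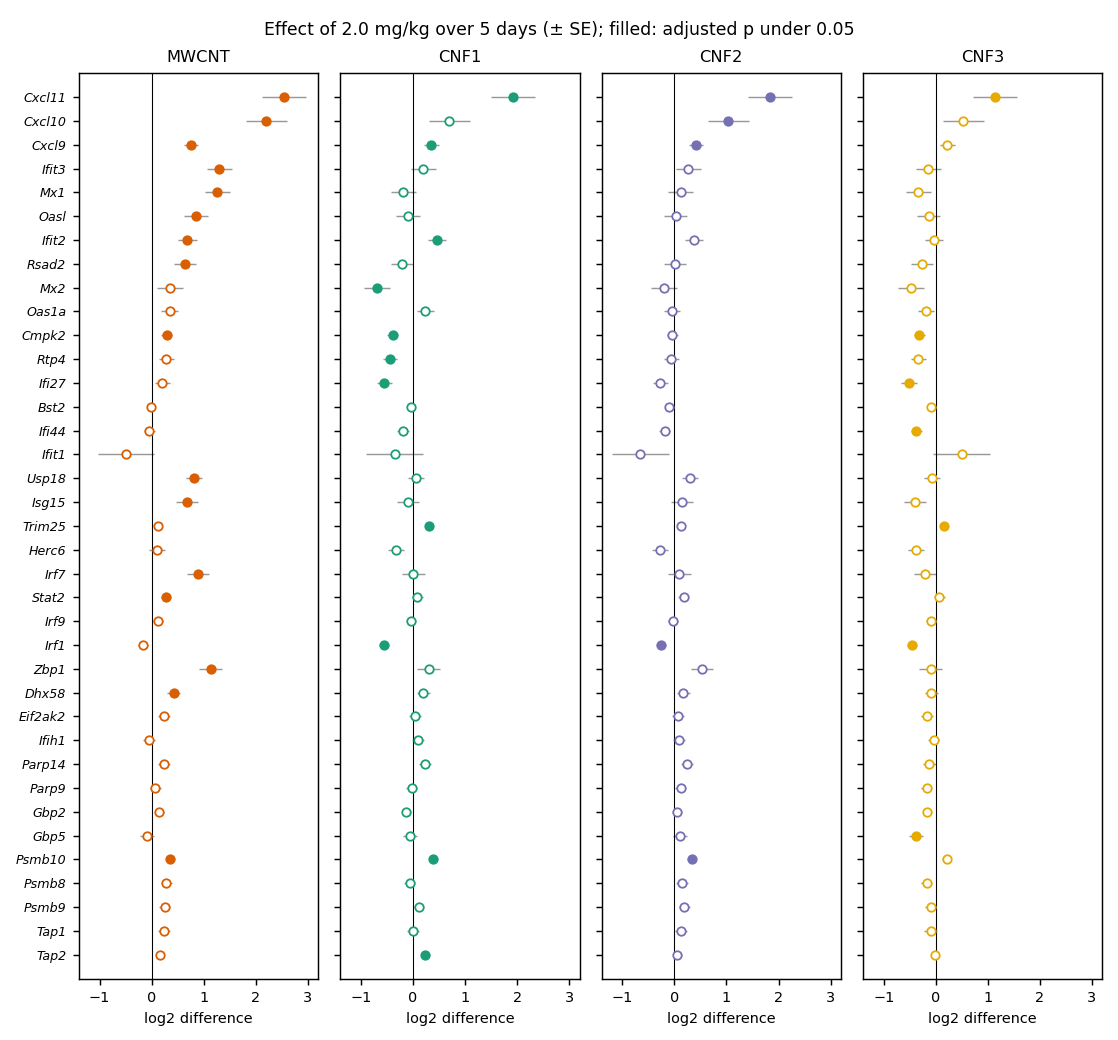
Effect of 2.0 mg/kg over 5 days for each of the 37 genes (log2 difference from the vehicle of the same material, bars ± SE, filled points with adjusted p under 0.05), grouped by role in the same order in every panel. The MWCNT panel has 16 filled points, all to the right of 0, and Cxcl11 lies farthest right in each panel.

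The largest responses were those of the Cxcr3 chemokines. Cxcl11 stood at -1.12, -1.35, -0.58, -1.03 and -1.06 in the MWCNT vehicle arrays of days 1, 3, 7, 30 and 90, and at 1.12, 2.97, 2.25, 0.77 and 0.48 in the 2.0 mg/kg arrays. All 5 exposed arrays lay above all 5 vehicle arrays, with an effect of 2.54 ± 0.42 (adjusted p = 2.19e-05). The share of all genes without such overlap is not given here, for this material or the others. Cxcl10 stood at 0.03, -0.57, -0.31, -0.22 and -0.49 in the vehicles and at 1.75, 2.96, 2.53, 1.14 and 1.04 after 2.0 mg/kg, also without overlap. Its effect was 2.20 ± 0.39 (adjusted p = 5.9e-05), and both chemokines had their largest difference on day 3, at 4.32 for Cxcl11 and 3.52 for Cxcl10. On day 90 the difference was 1.53 in each of them. Cxcl9, which is induced mainly by interferon gamma, was at -0.56, -0.67, -0.72, -0.33 and 0.20 in the vehicles and at -0.21, 0.15, 0.45, 0.45 and 0.86 in the exposed lungs. Here the day 1 exposed array lay below the day 90 vehicle, so the groups overlapped, and the effect was 0.76 ± 0.14 (adjusted p = 0.000105). The 3 genes neighbour each other on chromosome 14, and across the 20 differences at 2.0 mg/kg Cxcl10 and Cxcl11 had a Pearson r of 0.927 and Cxcl9 and Cxcl10 of 0.667, a description over points that share array processing and, in part, day.

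Of the 13 antiviral effectors measured, 6 rose after MWCNT. Ifit3, which with its relatives forms complexes that bind viral RNA, stood at -0.59, -0.44, 0.01, -0.65 and -0.48 in the vehicle arrays and at 0.72, 1.33, 0.83, 0.58 and 0.88 after 2.0 mg/kg. Its daily differences lay between 0.82 and 1.77 and were still 1.36 on day 90, with an effect of 1.30 ± 0.24 (adjusted p = 8.84e-05). Mx1, a dynamin-like GTPase that blocks virus replication, stood at -0.61, -0.27, -0.31, -0.72 and -0.71 in the vehicles and at 0.07, 1.53, 1.12, 0.42 and 0.53 in the exposed lungs. The arrays of neither gene overlapped between the groups, and the Mx1 effect was 1.26 ± 0.24 (adjusted p = 0.000138). Oasl, a relative of the oligoadenylate synthetases, was at -0.74, -0.24, -0.20, -0.06 and -0.71 in the vehicles against 0.03, 0.98, 0.50, 0.33 and 0.45, an effect of 0.85 ± 0.23 (adjusted p = 0.00527) with no overlap. Ifit2 rose from vehicle values of -0.32, -0.10, -0.13, -0.40 and -0.42 to 0.60, 1.13, 0.53, -0.08 and -0.12, an effect of 0.69 ± 0.18 (adjusted p = 0.00349). The Ifit2 arrays of day 90 after exposure and day 3 after vehicle overlapped narrowly. Its difference was 1.23 on day 3 and 0.31 on day 90, so that this gene came closer to its vehicle than Ifit3 did. Rsad2, which codes for viperin, had an effect of 0.64 ± 0.21 (adjusted p = 0.023), and its neighbour Cmpk2, a mitochondrial nucleotide kinase, one of 0.29 ± 0.11 (adjusted p = 0.0441). Both lost their call when the 4 vehicle arrays of a day served as a common control, at 0.38 (adjusted p = 0.0864) and 0.11 (adjusted p = 0.436).

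The other 7 effectors did not pass. Mx2, which lies beside Mx1, and Oas1a each had an effect of 0.35, with SE of 0.25 and 0.16, and were above the vehicle on all 5 days. Rtp4, a receptor chaperone, came to 0.28 and Ifi27 to 0.20, while Bst2 (tetherin, which holds budding virus at the cell surface) and Ifi44 were at -0.02 and -0.04. Ifit1 moved without any order, with daily differences of -2.03, 0.92, -0.82, 0.88 and -1.43 and an effect of -0.49 ± 0.55. Its 1 probe had a median Pearson r of 0.06 with the other genes over the 20 differences at 2.0 mg/kg, and an r of 0.206 with the adjacent Ifit3, whereas Ifit2 and Ifit3 had one of 0.771.

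Sensors and transcription factors were partly raised. Zbp1, which senses nucleic acids in the Z form, stood at -0.61, -0.56, -0.59, -0.41 and -0.46 in the vehicle arrays and at 0.24, 1.21, 0.84, 0.35 and 0.40 after MWCNT, with no overlap and an effect of 1.13 ± 0.22 (adjusted p = 0.000152). Dhx58, the regulator LGP2 of RNA sensing, rose by 0.42 ± 0.13 (adjusted p = 0.0113), and the kinase gene Eif2ak2 (PKR) and the sensor gene Ifih1 (MDA5) came to 0.23 and -0.05 and did not pass. The 2 probes of Eif2ak2 had an r of only 0.312 over the arrays. Irf7, the transcription factor that amplifies type I interferon output, was at -0.47, -0.09, 0.13, -0.29 and -0.47 in the vehicles and at 0.22, 1.30, 1.26, 0.38 and 0.09 in the exposed lungs. The day 90 exposed array was below the day 7 vehicle, and the effect was 0.89 ± 0.22 (adjusted p = 0.00209). Stat2 rose by 0.28 ± 0.10 (adjusted p = 0.0437), a call that 4 of 11 alternative settings kept. Irf9, its partner, was at 0.13 and Irf1, an activator of interferon gamma targets, at -0.16, and neither passed.

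Among ISG15 and the ubiquitin-type enzymes, Usp18, which removes ISG15 from proteins and dampens receptor signalling, stood at -0.62, -0.32, -0.37, -0.54 and -0.66 in the vehicles and at -0.12, 0.53, 0.41, 0.28 and 0.44 after MWCNT. No exposed array fell into the vehicle range, the effect was 0.81 ± 0.15 (adjusted p = 0.000117), and the largest daily difference was that of day 90. Isg15, the ubiquitin-like protein itself, rose by 0.68 ± 0.21 (adjusted p = 0.0179), from 1.24 on day 3 to 0.12 on day 30 and 0.44 on day 90. The ligases Trim25 and Herc6 came to 0.12 and 0.10 and did not pass. Of the 5 antigen processing genes, the immunoproteasome subunit Psmb10 passed, at 0.36 ± 0.08 (adjusted p = 0.00146). Its exposed arrays lay wholly above its vehicle arrays, and so did those of Psmb8. Psmb8 (0.28), Psmb9 (0.25), Tap1 (0.23) and Tap2 (0.16), which lie in 1 cluster on chromosome 20, did not pass, with adjusted p between 0.0609 and 0.178. The ADP-ribosyltransferases Parp14 and Parp9 (0.24 and 0.07) and the guanylate-binding proteins Gbp2 and Gbp5 (0.15 and -0.09) did not pass either. Counted by signature, 10 of 18 type I targets and 2 of 9 interferon gamma targets were called higher, with median effects of 0.39 and 0.23, and the difference between the signatures was not tested.

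**Figure D2:**
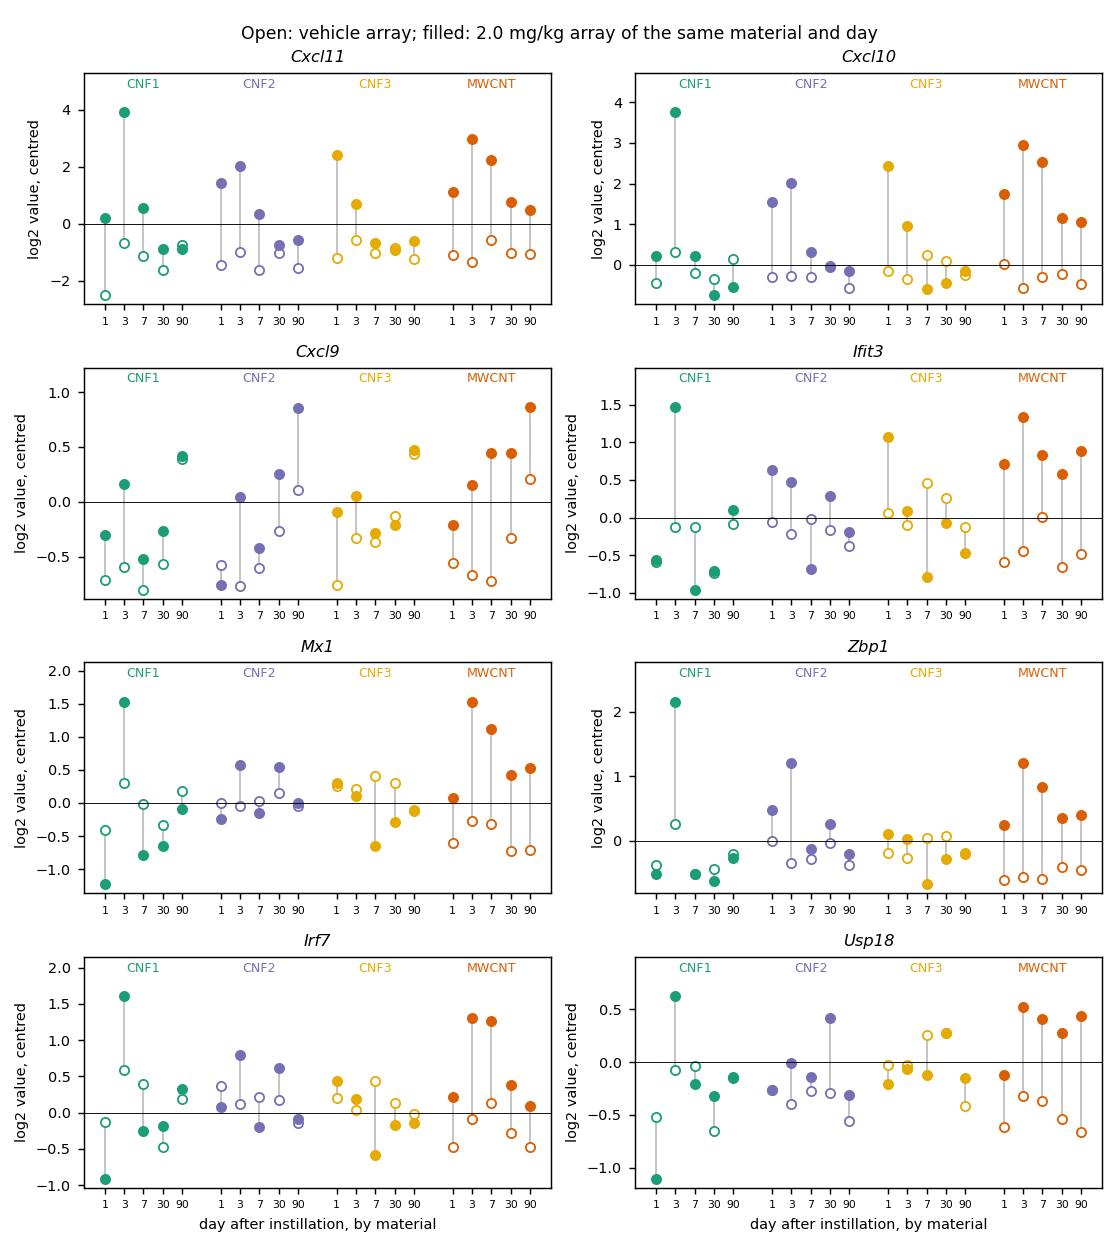
Centred log2 value of 8 genes in the vehicle array (open) and the 2.0 mg/kg array (filled) of every material and day, joined by a line, 1 array per point. In the MWCNT columns the filled point is above the open one on all 5 days for each of the 8 genes, while the CNF1 and CNF3 columns have filled points on both sides for most of them.

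The time course after MWCNT had its highest median on day 3, and most genes were still above the vehicle on day 90. On day 3 the exposed array was above its vehicle in 36 of 37 genes, with a median difference of 0.46 and 9 genes at 1 or more, all genes having a median of 0.057. On days 1, 7, 30 and 90 the counts above the vehicle were 32, 30, 26 and 27, and the medians 0.33, 0.30, 0.17 and 0.26. The largest of the 5 daily differences fell on day 3 in 23 of the 37 genes, a larger share than the 23% of all genes. Of the 16 called genes 11 had their largest difference on day 3, and Rsad2, Cxcl9 and Stat2 had it on day 7. Over days 1, 3 and 7, 12 genes were called higher (background 8.06%), and over days 30 and 90 there were 4 (background 7.06%), namely Cxcl11 at 1.67 ± 0.56, Ifit3 at 1.30 ± 0.42, Usp18 at 0.96 ± 0.25 and Cxcl9 at 0.72 ± 0.21. The late minus the early effect was itself called in 0 of 37 genes by limma (background 0.0565%; 0 higher and 5 lower at an unadjusted p under 0.05). Cxcl11 came to 3.13 early and 1.67 late, and Cxcl10 to 2.70 early and 1.45 late, differences of -1.46 ± 0.75 and -1.25 ± 0.75 that the fit did not call.

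**Figure D3:**
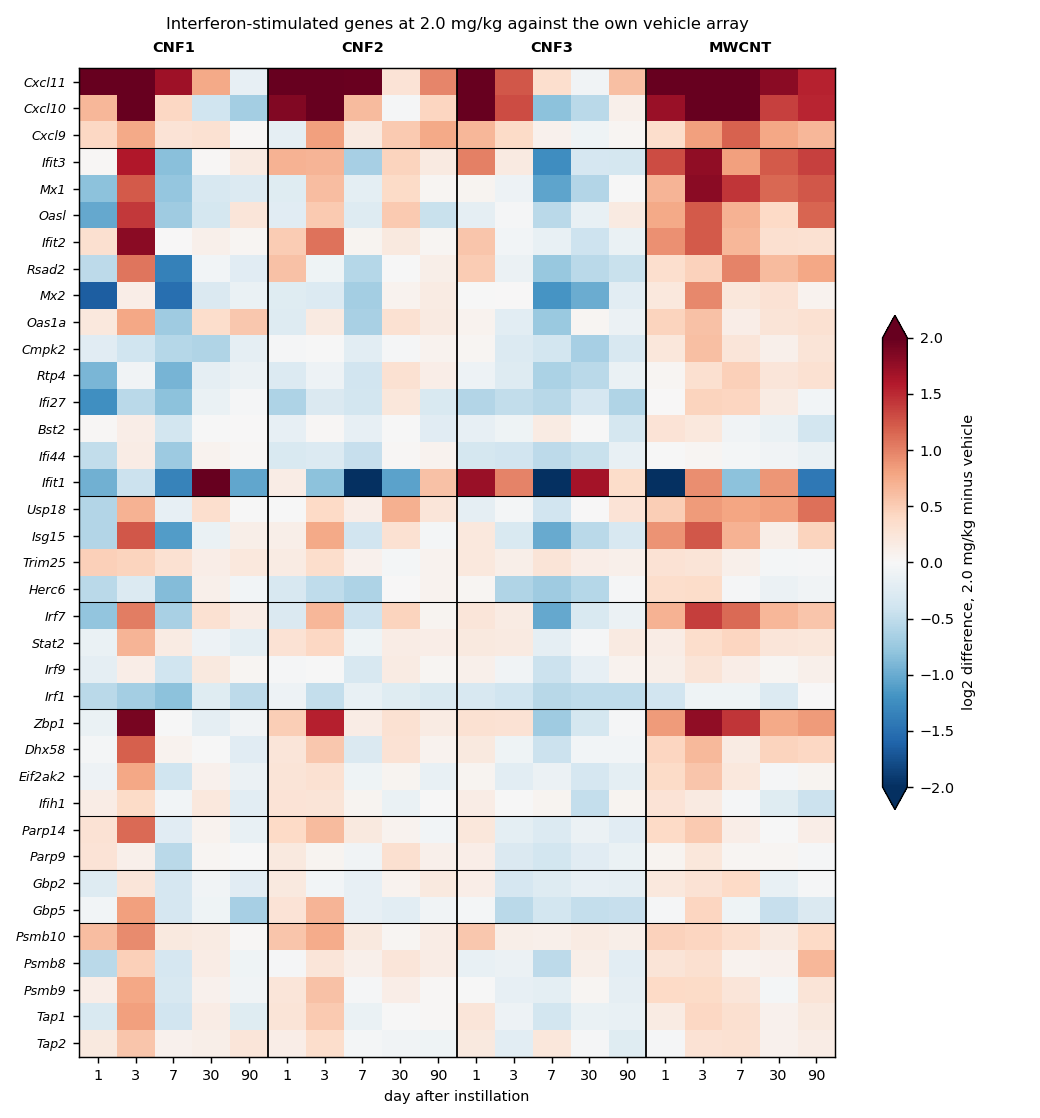
Log2 difference of the 2.0 mg/kg array from the vehicle array of the same material and day for the 37 genes, rows grouped by role and columns by material and day; colours are cut at -2 and 2. Red columns mark day 3 of CNF1, where 31 of 37 genes were above the vehicle, and day 3 of MWCNT, where 36 were, and blue columns mark day 7 of CNF1 and CNF3.

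The MWCNT doses were not in a simple order. At 0.5 mg/kg 19 genes were called higher and 0 lower (background 30.4% and 7.44%), and at 1.0 mg/kg 8 were higher and 0 lower (background 8.49% and 7.55%). Cxcl11 had effects of 1.83, 1.44 and 2.54 at the rising doses, Cxcl10 of 1.20, 1.26 and 2.20, Ifit3 of 1.13, 0.73 and 1.30, and Mx1 of 0.97, 0.76 and 1.26, so the lowest dose exceeded the middle one in 3 of these 4. On day 7 Cxcl10 stood at -0.31, 0.48, 1.05 and 2.53 from vehicle to the highest dose, an ordered rise. On day 3 it stood at -0.57, 2.81, 2.04 and 2.96, with the 0.5 mg/kg array close to the highest dose. A slope over the doses, fitted for each day, was called in 0 of 37 genes by limma on days 1, 3, 7, 30 and 90, where the background in either direction was 0.144%, 0%, 0.157%, 0.245% and 2.43%. At an unadjusted p under 0.05 there were 4, 9, 6, 0 and 4 rising slopes, and 1 falling slope, on day 90. The steepest were those of Cxcl11 on day 3, 1.72 ± 0.59 per mg/kg (adjusted p = 0.736), and Cxcl10 on day 7, 1.40 ± 0.36 per mg/kg (adjusted p = 0.0946), and on day 3, 1.38 ± 0.36 per mg/kg (adjusted p = 0.372). The arrays of the lower doses also stood apart as a set. The median of all genes on an array was 0.096 ± 0.030 (SD) over the 20 arrays of 0.5 mg/kg, and 0.024 ± 0.094 over those of 1.0 mg/kg, compared with -0.050 ± 0.042 for the vehicles and -0.063 ± 0.066 at 2.0 mg/kg. With 3 factors from spike-in and negative control spots in the fit, 0 of the 37 genes were called higher at 0.5 or 1.0 mg/kg for any material. In that fit 18 were called higher at 2.0 mg/kg MWCNT, where 13.8% of all genes were. The share of all genes at the lower doses in that fit is not given here, so the 0 cannot be read as particular to these genes.

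**Figure D4:**
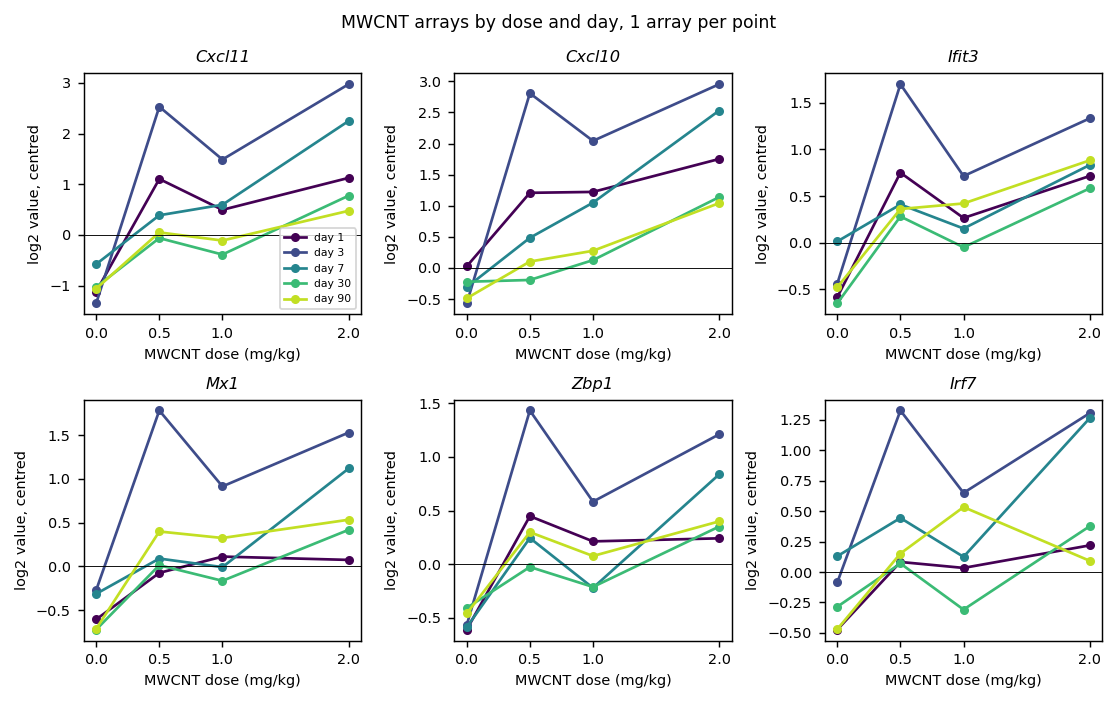
Centred log2 value of 6 genes against the MWCNT dose in mg/kg, 1 line per day and 1 array per point. The vehicle array is the lowest point of every line except those of Irf7 on days 7 and 30, the day 3 line has a local peak at 0.5 mg/kg in all 6 panels, and the day 7 line of Cxcl10 climbs from -0.31 to 2.53.

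CNF1 at 2.0 mg/kg had more interferon-stimulated genes above the vehicle on day 3 than on days 1 and 7. On that day 31 of 37 genes were above the vehicle, 12 of them by 1 or more, with a median difference of 0.75 where all genes had -0.12. Cxcl11 differed by 4.58, Cxcl10 by 3.45, Zbp1 by 1.89, Ifit2 by 1.81, Ifit3 by 1.60 and Oasl by 1.42, each as large as after MWCNT or larger apart from Cxcl10 and Ifit3. On days 1 and 7, 14 and 9 genes were above the vehicle, with medians of -0.14 and -0.39. The chemokines were above it on these days too, Cxcl11 by 2.70 and 1.69 and Cxcl10 by 0.67 and 0.42, and Isg15 went from -0.58 on day 1 to 1.24 on day 3 and -1.11 on day 7. The day 3 value rests on 1 exposed and 1 vehicle array, and no replicate array tests it. At the other doses of CNF1 on day 3, 27 genes at 0.5 mg/kg and 13 at 1.0 mg/kg were above the same vehicle array. Over the 5 days 6 genes were called higher and 5 lower (background 21.8% and 19.8%), against 16.2% and 13.5% of these genes. The higher ones were Cxcl11 (1.91 ± 0.42, adjusted p = 0.000277), Ifit2 (0.46), Psmb10 (0.39), Cxcl9 (0.35), Trim25 (0.31) and Tap2 (0.24). The Cxcl9 call was kept in 3 of 11 alternative settings and the Ifit2 call in 5. Without day 3 the count of higher genes was 3, and the share of all genes called higher was 14.8%.

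The vehicle arrays of CNF1 put Cxcl11 at -2.51, -0.68, -1.15, -1.64 and -0.74, and the 2.0 mg/kg arrays at 0.20, 3.90, 0.53, -0.89 and -0.89. The exposed lungs of days 30 and 90 lay inside the vehicle range. The 5 genes called lower were Mx2 (-0.69 ± 0.25, adjusted p = 0.0224), Irf1 (-0.56 ± 0.09, adjusted p = 3.66e-06), Ifi27 (-0.55), Rtp4 (-0.44) and Cmpk2 (-0.39). Irf1 was below its vehicle on each day, with differences of -0.55, -0.67, -0.83, -0.25 and -0.53. In the same lungs 6 of 9 markers of natural killer and cytotoxic cells were called lower, where 19.8% of all genes were. Their median daily difference lay between -1.32 on day 7 and 0.12 on day 90, and their part in the lower values was not tested. Early against late, CNF1 had 9 genes called higher over days 1, 3 and 7, 24.3% of them (background 24.2%), with a median effect of -0.02 over the 37. A further 7 genes were called lower, and the share of all genes called lower over these days is not given here. Over days 30 and 90, 0 genes were called higher (background 0.923%), and 1 was higher at an unadjusted p under 0.05. The late minus the early effect was called in 2 genes (background 9.28%), both lower: Cxcl11 by -2.69 ± 0.72 (adjusted p = 0.0174) and Psmb10 by -0.49 ± 0.16 (adjusted p = 0.0441). Of 9 alternative settings, 3 kept the first of these calls and 1 the second. The late minus the early effect was called in 0 genes after CNF2 (background 1.8%; 2 at an unadjusted p under 0.05) and in 0 after CNF3 (background 0.0816%; 0 at an unadjusted p under 0.05).

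After CNF2 4 genes were called higher and 1 lower, 10.8% and 2.7% of them, both below the shares of all genes (background 15.6% and 15.7%). The 4 higher genes were the 3 chemokines and Psmb10. Cxcl11 moved from -1.46, -0.99, -1.64, -1.03 and -1.57 in the vehicle arrays to 1.44, 2.03, 0.34, -0.75 and -0.59 in the exposed ones. Its exposed arrays lay wholly above its vehicle arrays, with an effect of 1.83 ± 0.42 (adjusted p = 0.000878). Cxcl10 was 1.85 and 2.28 above the vehicle on days 1 and 3, then 0.63, -0.02 and 0.42, an effect of 1.03 ± 0.39 (adjusted p = 0.0393). Cxcl9 came to 0.42 ± 0.14, with differences of -0.19 on day 1 and 0.75 on day 90, and Psmb10 to 0.34 ± 0.08. Irf1 was the gene called lower, at -0.25 ± 0.09 (adjusted p = 0.0305). Of 11 alternative settings, 5 kept the Cxcl10 call and 6 the Irf1 call. Zbp1 (0.53, adjusted p = 0.0561) and Ifit2 (0.38, adjusted p = 0.0933) were above the vehicle on all 5 days without passing.

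After CNF3 5 interferon-stimulated genes were called lower and 2 higher, 13.5% and 5.41% of them, near the shares of all genes (background 9.99% and 9.75%). The median effect was -0.14, with 7 of the 37 effects above 0. With the 4 vehicle arrays of a day as a common control the median was -0.03, with 15 above 0, and without day 7 it was -0.08. Ifi27, a small membrane protein, differed from its vehicle by -0.59, -0.50, -0.55, -0.34 and -0.60 on the 5 days. Irf1 differed by -0.32, -0.40, -0.55, -0.51 and -0.51, and Ifi44 by -0.36, -0.38, -0.53, -0.45 and -0.15. In these 3 genes and Gbp5 every exposed array lay under every vehicle array, and the share of all genes for which this held is not given here. Below the vehicle on all 5 days were 5 of the 37 genes, against 15.9% of all genes. The effects were -0.52 ± 0.15 for Ifi27, -0.46 ± 0.09 for Irf1, -0.38 ± 0.14 for Gbp5 and -0.37 ± 0.11 for Ifi44. Cmpk2 completed the list of genes called lower, at -0.31 ± 0.11. Of 11 alternative settings, the Gbp5 call was kept in 3, those of Ifi44 and Cmpk2 in 8 each, that of Ifi27 in 10 and that of Irf1 in 11. Cxcl11 was higher, at 1.14 ± 0.42 (adjusted p = 0.049), from a difference of 3.61 on day 1 that had fallen to 0.33 by day 7. That call was kept in 4 of the 11. Trim25 was the other higher gene, at 0.16 ± 0.06. On day 1, 26 of 37 genes were above the vehicle, and on days 7 and 30 there were 7 on each.

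Cxcl11 was called higher after all 4 materials at 2.0 mg/kg, and Irf1 was called lower after the 3 cellulose materials and came to -0.16 (adjusted p = 0.224) after MWCNT. At the lower doses the cellulose counts were as follows. At 0.5 mg/kg 14 genes were higher and 0 lower for CNF1 (background 36.1% and 11.4%), 11 and 0 for CNF2 (37.7% and 12.9%), and 2 and 1 for CNF3 (23.8% and 5.54%). At 1.0 mg/kg the counts were 3 higher and 6 lower for CNF1 (20.6% and 16.2%), 3 and 4 for CNF2 (27.6% and 12.3%), and 3 and 2 for CNF3 (18.7% and 6.09%). Cxcl11 was among the higher genes in every one of these comparisons, with effects between 1.59 and 1.93, and Irf1 was lower after 1.0 mg/kg of each cellulose material, at -0.41, -0.46 and -0.48. These counts share the vehicle arrays with those at 2.0 mg/kg and are subject to the set-wide shift of the lower-dose arrays described above.

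The materials were then compared with each other at 2.0 mg/kg, 6 pairs in all, each as a difference of effects against the own vehicle. MWCNT exceeded CNF1 in 4 genes (background 0.804%) and CNF3 in 5 genes (background 0.314%), and fell below them in 0. Mx1 exceeded CNF1 by 1.45 ± 0.34 (adjusted p = 0.0187) and CNF3 by 1.60 ± 0.34 (adjusted p = 0.0115), and Cmpk2 by 0.68 ± 0.15 and 0.60 ± 0.15. Ifi27 (0.75 ± 0.21) and Rtp4 (0.72 ± 0.20), which were not called after MWCNT itself and were lower after CNF1, completed the list against CNF1. Ifit3 (1.44 ± 0.34), Zbp1 (1.23 ± 0.31) and Usp18 (0.87 ± 0.22) completed the list against CNF3. Adjusted over the 6 pairs of the gene, the p-values of these 9 differences were between 0.000126 and 0.00489. Against CNF2 MWCNT was higher in 0 of 37 genes by limma (background 0.0816%; 9 higher and 0 lower at an unadjusted p under 0.05), with 32 of 37 differences above 0 and a median of 0.26. The cellulose materials differed from each other in 0 genes by limma. Background was 0.207% for CNF2 against CNF1, 0% for CNF3 against CNF1 and 0.151% for CNF3 against CNF2, with 3, 2 and 6 genes at an unadjusted p under 0.05. The Cxcl11 difference between MWCNT and CNF1 was not called, and neither were those of the other chemokines in any pair. With only the vehicle and 2.0 mg/kg arrays in the fit, 0 genes passed in each of the 3 pairs that hold MWCNT.

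The vehicle lungs differed among themselves, which bears on these pairs. Mx1 averaged -0.53 ± 0.22 (SD, 5 arrays) in the vehicles of MWCNT, -0.06 ± 0.31 in those of CNF1, 0.02 ± 0.08 in those of CNF2 and 0.21 ± 0.19 in those of CNF3. It was the 1 gene of 37 called between the 4 vehicle series by limma's F test (adjusted p = 0.0212; background 6.44%). At an unadjusted p under 0.05 there were 22 of the 37, and the share of all genes at that limit is not given here. The MWCNT vehicles had the lowest mean of the 4 series in 24 of 37 genes, compared with 23.8% of all genes, and the CNF3 vehicles had the highest in 29 of 37, compared with 35.0%. With the 4 vehicle arrays of a day as a common control, MWCNT had 16 genes called higher at a median effect of 0.20, where 18.6% of all genes were higher. Rsad2 and Cmpk2 were not among these 16. CNF3 had 3 higher, where 18.5% of all genes were, and 4 lower, for which no such share is given here. The share of the differences between materials that comes from the vehicles was not tested beyond this.

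Some of the genes also changed over the days in lungs without particles. Between days, 3 of 37 genes were called in the vehicles (background 11.9%), and 8 had an unadjusted p under 0.05. Cxcl9 rose from -0.65 ± 0.10 (SD, 4 arrays) on day 1 to -0.62 ± 0.19 on day 7 and 0.29 ± 0.16 on day 90 (adjusted p = 0.000153). Rsad2 went the other way, from 0.30 ± 0.16 on day 1 to -0.49 ± 0.29 on day 30 and -0.92 ± 0.40 on day 90 (adjusted p = 0.000472), and Cmpk2 ended at -0.28 ± 0.17 (adjusted p = 0.0138). On day 90 the Cxcl9 mean of the vehicles was above the MWCNT array of day 3 at 2.0 mg/kg, which stood at 0.15.

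**Figure D5:**
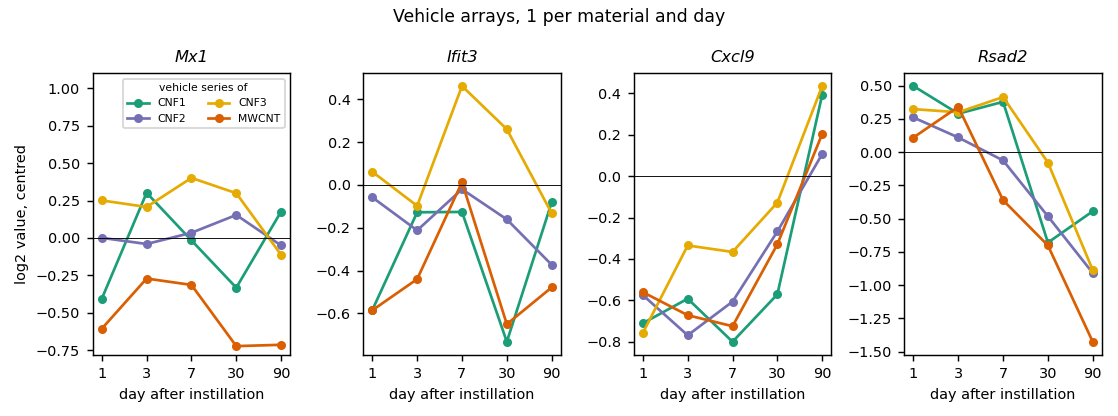
Centred log2 value of 4 genes in the 20 vehicle arrays against day, 1 line per vehicle series. The MWCNT vehicles are the lowest line for Mx1 on every day, with a mean of -0.53, Cxcl9 climbs in all 4 series to day 90, and Rsad2 is lower on day 90 than on day 1 in all 4.

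Other genes of the pathway, which are not among the 39, were read in the same fit, at 2.0 mg/kg. After MWCNT 12.7% of all genes were called higher in it and 9.16% lower. Of the interferon genes 9 of 14 listed were measured, and after MWCNT 0 were higher and 2 lower, Ifna5 at -0.88 ± 0.26 (adjusted p = 0.0102) and Ifna4 at -0.87 ± 0.27 (adjusted p = 0.0153). Ifna4 was also lower after CNF1, CNF2 and CNF3, at -1.44, -1.61 and -1.22. Rat interferon alpha genes are near-identical copies, so the probes may not separate them. Ifnb1, the beta interferon, was called higher only after CNF2, at 0.63 ± 0.24 (adjusted p = 0.0368) and on 3 of 5 days, and Ifng was called after none of the 4 materials. Of 11 receptor and signalling genes measured of 13 listed, 2 rose after MWCNT, the chemokine receptor Cxcr3 (0.52 ± 0.12) and the interferon gamma receptor chain Ifngr2 (0.42 ± 0.11). Ifngr2 also rose after CNF1, CNF2 and CNF3, at 0.79, 0.74 and 0.44, and Jak2, a kinase of that receptor, after the same 3 at 0.69, 0.60 and 0.42. The feedback inhibitors Socs1 (0.60) and Socs3 (0.52) rose after CNF1. Of 11 upstream sensors and adaptors measured of 15 listed, 5 rose after MWCNT and 0 fell: Sting1, the adaptor of cytosolic DNA sensing (0.87 ± 0.16), the transcription factor Irf5 (0.83 ± 0.15), the RNA sensors Tlr3 (0.49 ± 0.16) and Tlr7 (0.42 ± 0.13), and the kinase Ikbke (0.48 ± 0.10). Irf5 and Tlr7 rose after each cellulose material too, Irf5 by 1.13, 1.23 and 0.98.

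Markers of other cells moved in the same lungs. Over all genes, 12.7% were called higher and 9.16% lower after MWCNT, and 21.8% and 19.8% after CNF1. The shares were 15.6% and 15.7% after CNF2, and 9.75% and 9.99% after CNF3. After MWCNT 5 of 7 neutrophil markers rose, led by Lcn2 (3.61 ± 0.54), which epithelium also makes, and Cd177 (3.51 ± 0.32), and the median difference of the list on the 5 days lay between 0.34 and 2.26. After CNF1 the same list had 1 higher and 1 lower marker, with daily medians between -0.95 and 0.46. Of 10 macrophage and monocyte markers, 5 rose after MWCNT, 5 after CNF1, 4 after CNF2 and 4 after CNF3. Itgam came to 2.12 ± 0.37 and Cd68 to 1.29 ± 0.21 after MWCNT, and Adgre1 (-0.49 ± 0.18) and Csf1r (-0.44 ± 0.16) were lower after CNF1. Of the 9 markers of natural killer and cytotoxic cells, 0 were called after MWCNT, 1 lower after CNF2 and 3 lower after CNF3. Of 9 T cell markers 1 was higher after MWCNT and 2 were lower after CNF1, and of 6 B cell markers 0 were called after MWCNT and 4 were lower after CNF1. Of 7 dendritic cell markers Flt3 was higher (0.56 ± 0.15) and Tcf4 lower (-0.41 ± 0.07) after MWCNT. Of 10 markers of endothelium and alveolar epithelium 6 were lower after MWCNT, CNF1 and CNF2, and 4 after CNF3. The part of these cell changes in the interferon-stimulated genes was not tested.

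Across the 20 differences at 2.0 mg/kg the 37 genes had a median pairwise Pearson r of 0.56, with 0.66 among the 18 type I targets and 0.52 among the 9 interferon gamma targets. Isg15 followed the others most closely, with a median r of 0.76, then Tap1 at 0.72 and Irf7 and Mx1 at 0.71. Trim25 (0.01), Ifit1 (0.06), Ifih1 (0.24), Bst2 (0.26) and Irf1 (0.31) followed least. These values describe the 20 differences, which share array processing and, in part, day.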

How the data were processed

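RNA of rat lung was hybridised to 1-colour (Cy3) Agilent arrays, 1 for each of 80 groups, and scanner images were quantified in Agilent Feature Extraction 12.0.3.1, per the submitters' processing notes. Deposited were log2 values, already normalized by the authors and centred per probe, as the values themselves show. Neither the method nor the base of the logarithm is given in the sources used here, and base 2 was assumed. No signal or detection call was among them, so precision rests on the number of arrays, and the median SE of an effect was 0.117.

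Of 41012 rat probes, 20932 carried 1 gene symbol and 20080 none. Symbols were updated through accessions or synonyms, and the probes of a gene were averaged to 15925 genes. Tests used limma 3.58.1 in R 4.3.3 (lmFit, eBayes) with a block for each material and day. Late (days 30 and 90) minus early (days 1, 3 and 7) effects had 36 residual degrees of freedom, dose slopes 40, and vehicle F tests 12. P-values set an effect against the scatter that the fit leaves between these arrays. In the fit of effects no term holds a response that differs between days, so the residuals of a day may not be independent. The fit of effects was run on simulated data with independent noise and a shift that was equal on all days. Responses here varied between days, so that run gives no error rate for these data. Motifs were searched in RefSeq promoters. Figures were drawn with matplotlib 3.10.9.

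The members and gene lists were chosen with earlier results of these data known. Named genes are the 10 largest called MWCNT effects on 1 side of the vehicle on all 5 days (values in every array), the called genes of each CNF, pair and period, the vehicle genes with the smallest p, and up to 4 per list by p. Steepest slopes, Ifit1 and the day 3 genes of CNF1 were named after their values were seen. Alternatives were quantile normalization, 3 control-spot factors, a common control, fewer arrays or each material alone, leaving out each day, 1 probe per gene, a size of at least 1 and, for slopes, dose as a rank.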

Additional observations from a re-analysis of the deposited data

Results flagged for a closer look

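The following differences between groups passed a test of the difference itself. Between materials at 2.0 mg/kg, MWCNT exceeded CNF1 in Mx1 by 1.45, in Ifi27 by 0.751, in Rtp4 by 0.722 and in Cmpk2 by 0.681 on the log2 scale. MWCNT exceeded CNF3 in Mx1 by 1.6, in Ifit3 by 1.44, in Zbp1 by 1.23, in Usp18 by 0.874 and in Cmpk2 by 0.603. Between periods, the effect of CNF1 on days 30 and 90 minus that on days 1, 3 and 7 was -2.69 for Cxcl11 and -0.492 for Psmb10. The causes of these differences were not tested. Of the 9 differences between materials, those of Mx1 were called in 5 of 9 alternative settings each, those of Cmpk2 in 5 (CNF1) and 3 (CNF3), Ifit3 in 5, Zbp1 in 4, Usp18 in 3, Ifi27 in 2 and Rtp4 in 1.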

How the results depend on the processing

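No effect or difference that was called in the main fit changed sign under an alternative: of 528 values for these 50, 368 stayed called and 160 did not. Effects that were not called were not followed gene by gene. Over the 37 genes, the effects above 0 after CNF1 at 2.0 mg/kg went from 19 to 9 without day 3 and to 27 without day 7. The 10 genes given in every array after MWCNT were called by adjusted p under all 11 settings of values, arrays and fit, and 5 of them at a size of at least 1. Members called higher after MWCNT at 2.0 mg/kg were 16, and 11 with the vehicle and 2.0 mg/kg arrays alone, 5 at a size of at least 1, and 12 to 14 without 1 day. The share of all genes called higher moved with the setting too, from 6.74% (vehicle and 2.0 mg/kg arrays alone) to 18.6% (common control) for MWCNT and 8.36% to 12% without 1 day. It lay between 13.2% and 25% for CNF1, 8.52% and 22% for CNF2, and 3.94% and 18.5% for CNF3. After MWCNT, 1 gene was called lower when that material was fitted alone, and the share of all genes called lower in that fit is not given here.

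For the cellulose materials at 2.0 mg/kg, CNF1 had 3 higher genes with quantile normalization, 3 when fitted alone and 1 at a size of at least 1, with 4 with control-spot factors, 4 with vehicle and 2.0 mg/kg arrays alone, and 3 to 7 without 1 day. Lower genes after CNF1 were 2 when fitted alone, 0 at a size of at least 1, and 2 to 7 without 1 day. CNF2 had 10 higher genes with the common control (22% of all genes), 6 when fitted alone (13.9%), 2 at a size of at least 1 and 2 to 3 without 1 day. Its lower genes were 0 with quantile normalization, with control-spot factors and at a size of at least 1, and 0 to 2 without 1 day. CNF3 had 3 higher genes with quantile normalization and with the common control, 0 with control-spot factors, with vehicle and 2.0 mg/kg arrays alone and with 1 probe per gene, 1 at a size of at least 1, and 0 to 2 without 1 day. Its lower genes were 13 with quantile normalization, 0 at a size of at least 1, and 1 to 6 without 1 day. The share of all genes called lower in these settings is not given here, so the counts of lower genes have no background.

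MWCNT exceeded CNF1 in 1 gene with quantile normalization, 12 with the common control (1 lower), 0 with vehicle and 2.0 mg/kg arrays alone, and 0 to 8 without 1 day. It exceeded CNF3 in 12, 5 and 0 genes in the same order and in 0 to 4 without 1 day. Late minus early calls after CNF1 were 0 with quantile normalization, 1 with control-spot factors, 0 with vehicle and 2.0 mg/kg arrays alone, 0 for day 90 minus days 1 and 3, and 0 to 4 without 1 day, and after CNF2 0 to 2 without 1 day. With control-spot factors, dose slopes gave 2 genes on day 3, 2 on day 7 and 1 on day 90, and the vehicles gave 2 between days and 0 between materials. These counts for pairs, periods, slopes and vehicles are given without the share of all genes in the same setting.

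At 0.5 and 1.0 mg/kg, control-spot factors left 0 calls in either direction for every material except 1 lower gene after CNF3 at 1.0 mg/kg. With quantile normalization at 0.5 mg/kg, higher and lower genes were 6 and 5 for CNF1, 2 and 11 for CNF2, 1 and 17 for CNF3, and 14 and 3 for MWCNT. At 1.0 mg/kg they were 1 and 8, 2 and 14, 2 and 18, and 11 and 0. The common control gave 8 higher genes for CNF3 at 0.5 mg/kg and 6 at 1.0 mg/kg, 5 higher and 7 lower for CNF2 at 1.0 mg/kg, 1 lower for MWCNT at 0.5 mg/kg, and 4 higher and 2 lower for it at 1.0 mg/kg. No share of all genes is given for the alternative settings at these 2 doses, so the counts cannot be set against a background. The settings at these 2 doses, the common control for pairs, and leaving out days for the periods were chosen after seeing the data. Each result rests on 1 array per group, and without signal levels the distance of a gene from background is unknown. Each exposed array was set against the vehicle of its own material and day through the block in the fit. No paired analysis was possible by replicate number, because the numbers in the labels name no shared animal.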
